A study of Homo sapiens with 8 samples.

Results

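Cyclin-dependent kinase 2 was targeted with 3 hairpins in NB4 cells, and the 3 hairpin arrays of day 5 (shCDK2 #1, #3 and #10) were set against the single array labelled scramble at day 5, so the comparison rests on 4 of the 8 arrays of the series. NB4 is a human myeloid line from acute promyelocytic leukaemia, in which granulocyte differentiation is arrested at the promyelocyte. A lentivirus, given at a multiplicity of infection of 10, carried a short hairpin RNA against CDK2 or a scrambled hairpin. The submitters describe day 5 as the late and day 2 as the early stage of differentiation, and no retinoid or other agent is named. Each construct had 1 array on each day, hybridised from total RNA of the whole culture, and the labels do not say that the arrays came from separate transductions, so p-values measure the spread between these arrays only. All 4 cultures of day 5 carried a virus, and no untransduced culture was analysed here.

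CDK2 pairs with cyclin E at the start of DNA replication and with cyclin A during it, and phosphorylates the retinoblastoma protein, which releases the E2F transcription factors. Promyelocytes normally leave the cell cycle as they mature, and gain surface receptors, secondary granules and phagocytic enzymes. In blood cells, interferons, NF-kB and the hypoxia-inducible factors each switch on a characteristic set of genes, and these sets were described as lists beside the lists for the cell cycle and for maturation.

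Values are log2 signals of Affymetrix probe sets, and a gene was represented by its brightest probe set on average. Array medians lay between 6.30 and 6.43 log2 over 49395 probe sets, and standard deviations between 2.14 and 2.26. Genes with a mean above 5.83 log2 entered the comparisons, which kept 12845 of 18132 genes. No detection call was used here, so whether a level near or under 5.83 log2 was above background was not tested. Because the filter takes the mean over all 8 arrays, a gene that is dim in most of them can pass through the arrays in which it is high, so the gene lists with many dim members are given over all measured members, and the others over those tested. A gene is said to be past the fold where it differed from the array labelled scramble by 1 log2, a 2-fold difference, or more. A hairpin against this array is 1 array against 1 array and has no test. Of the promyelocyte markers, MPO was bright, with 14.12, 14.26 and 14.09 log2 in #1, #3 and #10 and 14.15 log2 in the array labelled scramble. PRTN3, AZU1, CTSG and MYB were measured above 7.9 log2 in all 4 arrays, while ELANE lay between 5.83 and 6.35 log2 and KIT under 4.0 log2.

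CDK2 was at most modestly lower in the hairpin arrays of day 5 than in the array labelled scramble. On the brightest of its 3 probe sets it stood at 7.89, 7.72 and 8.08 log2 in #1, #3 and #10, against 8.19 log2 in the array labelled scramble. These levels equal 81.1%, 72.3% and 92.9% of that array's signal. On the next probe set the shares were 74.0%, 76.4% and 97.5%, and on the dimmest 88.1%, 81.2% and 85.7%. All 9 hairpin values lay below the scramble-labelled value of their probe set, with #10 closest to it on the 2 brighter ones. The mean difference was -0.29 log2 with a standard error of 0.53, and did not pass limma's test (adjusted p = 0.921).

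The array labelled scramble at day 5 was itself low in CDK2. Its signal on the brightest probe set was 0.91 log2 below that of the array labelled scramble at day 2, which stood at 9.10 log2. Against the day 2 array the day 5 hairpin levels equal 43.1%, 38.4% and 49.4% in #1, #3 and #10. The dimmest probe set had 7.53 log2 in the array labelled scramble at day 5 and 7.51 log2 in that of day 2. On the 2 brighter probe sets the day 5 control, although above all 3 hairpins, was thus nearer to them than to the day 2 control. The level of the targeted gene does not bear out the label of that array. A labelling error cannot be told apart from a change with the day, and neither was tested. Every difference below is drawn from that same array, directions included. At day 2 the hairpins #1 and #10 were 1.33 and 1.56 log2 below the array labelled scramble, whereas #3 was 0.07 log2 below it. The array labelled shCDK2 #3 at day 2 therefore does not bear out its label in the targeted gene either. Day 2 values of #3 below are those of the array so labelled.

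**Figure D1:**
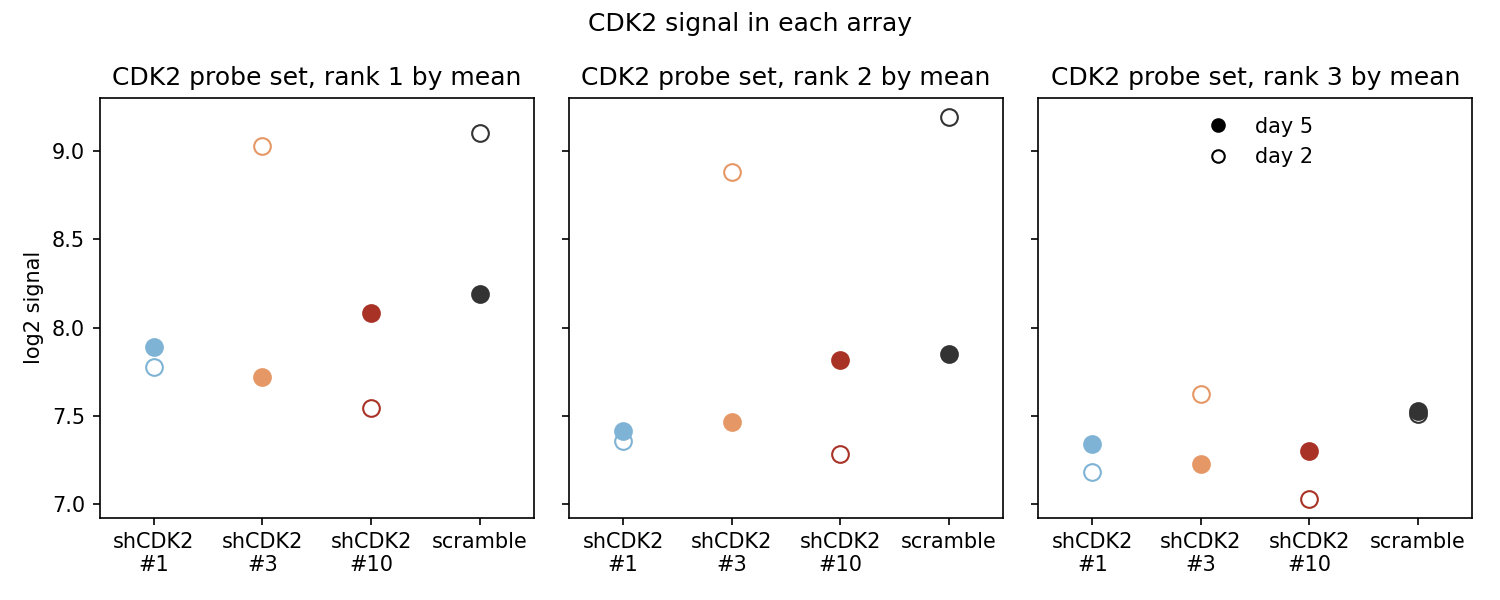
Log2 signal of CDK2 (vertical axis) in each array, 1 panel for each of its 3 probe sets in order of brightness, with filled points for day 5 and open points for day 2. At day 5 the filled hairpin points sit at or just under the array labelled scramble, whose own filled point is well below its open one on the 2 brighter probe sets.

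The hairpins differed from the array labelled scramble to very unequal extents. In #1, 41 genes were past the fold higher (0.319% of those tested) and 73 lower (0.568%). In #3 there were 796 higher (6.2%) and 44 lower (0.343%), and in #10 there were 716 higher (5.57%) and 69 lower (0.537%). Both #3 and #10 were thus strongly weighted towards higher signals, and #1 was not. The standard deviation of the differences over all tested genes was 0.27 log2 in #1, 0.61 in #3 and 0.63 in #10, around medians of -0.03, -0.09 and -0.11 log2. The largest single difference reached 2.69 log2 in #1, 5.45 in #3 and 8.25 in #10.

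Set against each other without the control, #10 exceeded #1 by the fold in 760 genes (5.92%) and fell short of it in 30 (0.234%). Likewise #3 exceeded #1 in 1107 genes (8.62%) and fell short in 53 (0.413%). Between #10 and #3 the counts were nearly balanced, with 194 genes higher (1.51%) and 164 lower (1.28%) in #10. The separation of #1 from the other hairpins therefore does not depend on the control array.

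limma, fitted over all 8 arrays with a mean for each group and day, called 0 genes at an adjusted p under 0.05 in the comparison of the 3 hairpins with the array labelled scramble at day 5. An unadjusted p under 0.05 was reached by 171 genes (1.33%), and the smallest adjusted p was 0.913. The test of the day 5 difference against the day 2 difference also called 0 genes, with 164 at an unadjusted p under 0.05 (1.28%). None of the 154 genes followed here passed, with adjusted p between 0.913 and 0.989, so all values below describe these arrays.

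**Figure D2:**
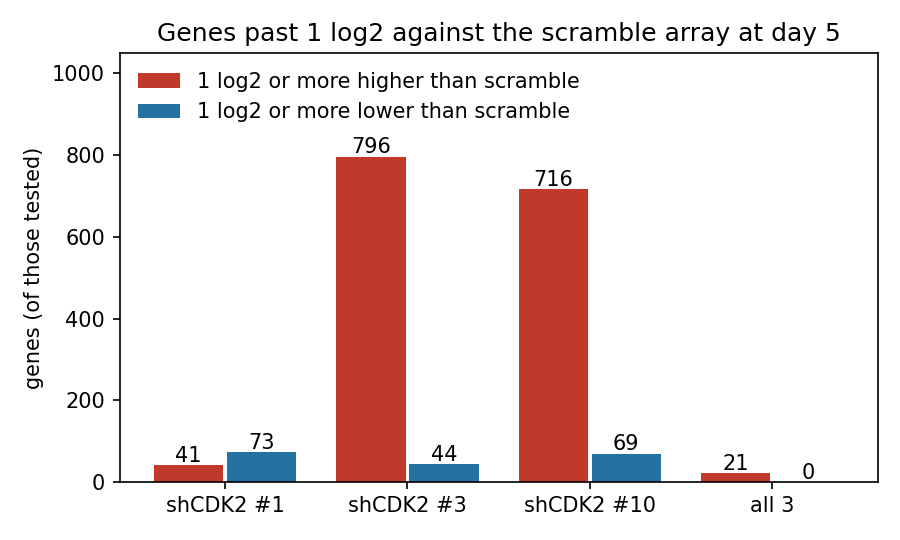
Number of tested genes (vertical axis) that were 1 log2 or more higher (red) or lower (blue) than the array labelled scramble at day 5, for each hairpin and for all 3 together. Hairpins #3 and #10 have 796 and 716 higher genes, #1 has 41, and 21 are shared by all 3.

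All 3 hairpins were past the fold higher in 21 genes (0.163%) and past the fold lower in 0. The 21 hold mitochondrial and lipid genes (CPOX, AK4, BNIP3, PLIN2, MSMO1), genes of membrane traffic and the cytoskeleton (SCARB2, GCC2, DYNLT3, PICALM, TUBA1A, ENAH, ABLIM1, WDR19), transcriptional regulators (JUN, BHLHE41, IRF2BPL) and surface or secreted proteins (CD69, THBS1, GPR180), besides RNF145 and STYX. The highest level was in #10 in 19 of them, and the lowest among the hairpins was in #1 in 17. limma's standard errors ran from 0.24 to 1.51 log2. An unadjusted p under 0.05 was reached by 16, and each had an adjusted p of 0.913. The count depends on #1, which differed least: without it 451 genes were shared higher and 10 lower, and without #3 32 and 9.

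CPOX, which makes protoporphyrinogen in haem synthesis, had the largest difference in the least-moved hairpin. Its level was 9.26, 8.42 and 9.21 log2 in #1, #3 and #10, against 6.57 log2 in the array labelled scramble at day 5. The mean difference was 2.40 log2 (SE 0.37), and 1.13 log2 with the mean of its probe sets. Of its 3 probe sets, all above the filter, 2 were higher in all 3 hairpins and 1 was past the fold in all 3. On the brightest, all 3 hairpins were well above the control, yet the array labelled scramble at day 2 read 9.25 log2, as high as #1 and #10, and in the hairpin arrays of day 2 CPOX was 0.56, 0.03 and 0.27 log2 below it.

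A low control is part of how the shared genes were chosen, since each had to lie 1 log2 or more above that array in all 3 hairpins. An excess of genes in which it is low is therefore built in, and nothing is read from the shares. In 16 of the 21 the array labelled scramble at day 5 was below that of day 2, in 9 of them by the fold, against 44% and 0.74% of all tested genes. Only THBS1, BHLHE41, PLIN2, IRF2BPL and JUN were level with or above the day 2 array. Against the mean of both scramble-labelled arrays 7 of the 21 were past the fold in all 3 hairpins, these 5 with SCARB2 and TUBA1A. Against the day 2 array alone the 5 were past it, and 6 of the 21 were not higher in all 3 hairpins: CPOX, AK4, BNIP3, PICALM, ENAH and ABLIM1. Averaging the probe sets of a gene, in place of taking the brightest, left 3 shared genes in all. Of the 15 with more than 1 probe set above the filter, 10 were higher in all 3 hairpins on every such probe set.

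The 5 genes past the fold against either control array follow. JUN, a subunit of the AP-1 transcription factor, had 8.13, 9.34 and 10.96 log2 in #1, #3 and #10, against 7.08 log2 in the array labelled scramble (mean difference 2.40, SE 1.23). IRF2BPL, an interferon regulatory factor 2 binding protein relative, had 10.16, 11.72 and 12.06 log2 in the hairpins, against 9.11 log2 (mean difference 2.21, SE 0.90). THBS1, the secreted matrix glycoprotein thrombospondin 1, had 10.92, 11.53 and 12.85 log2 in the hairpins, against 9.46 log2 in the array labelled scramble. In each of these 3 genes the order was #10, #3, #1 and scramble, from high to low. At day 2 none of the 3 had it, since #3 was below #1 in each. THBS1 in #3 then differed from the array labelled scramble by -2.53 log2 and in #10 by 1.74 log2.

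PLIN2, which coats lipid droplets, had 8.75, 10.22 and 11.21 log2 in #1, #3 and #10, against 7.57 log2 in the array labelled scramble (mean difference 2.49, SE 1.06). BHLHE41, a repressor in the circadian clock, had 7.89, 8.61 and 10.44 log2 in the hairpins, against 6.67 log2 in the array labelled scramble (mean difference 2.31, SE 1.33). PLIN2 was already higher at day 2 in all 3 hairpins, by 1.06, 1.29 and 3.18 log2. BHLHE41 at day 2 was higher by 0.88, 0.01 and 3.29 log2, so that the array labelled #3 was level with its control. At day 5 BHLHE41 was higher in all 3 hairpins on 1 of its 3 probe sets, and PLIN2 on both of its 2.

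Of the other shared genes, SCARB2, a lysosomal membrane protein that carries glucocerebrosidase, stood at 8.71, 8.97 and 11.19 log2 in #1, #3 and #10, against 6.96 log2 in the array labelled scramble. The mitophagy protein BNIP3 stood at 10.58, 12.12 and 12.62 log2 in the hairpins, against 9.33 log2. SCARB2 was higher in all 3 hairpins on 2 of its 4 probe sets. BNIP3 was so on 1 of its 2, the only 1 above the filter. AK4, a mitochondrial adenylate kinase, differed by 1.45, 2.94 and 3.21 log2, and CD69, an early activation lectin of leukocytes, by 1.10, 3.76 and 4.32 log2. In all 4 genes #1 was the hairpin nearest to the control. TUBA1A, an alpha-tubulin, was higher by 1.49, 2.69 and 3.91 log2, a value that is uncertain because alpha-tubulin genes are nearly identical over long stretches. WDR19, MSMO1, ENAH and ABLIM1 were the closest to the fold, with 1.04, 1.04, 1.02 and 1.01 log2 in their least-moved hairpin, and CHST2 fell just short. ENAH in the array labelled scramble was under 5.83 log2.

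At day 2 the hairpins differed in these 21 genes as follows. In #10, 15 were past the fold higher, where 6.8% of all tested genes were. In #3 the number was 6, where 1% of all genes were, and in #1 it was 1, where 0.304% were. By any size 15, 18 and 20 were higher at day 2 in #1, #3 and #10, where 51.5%, 53.9% and 46.7% of all genes were. The days use separate control arrays.

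**Figure D3:**
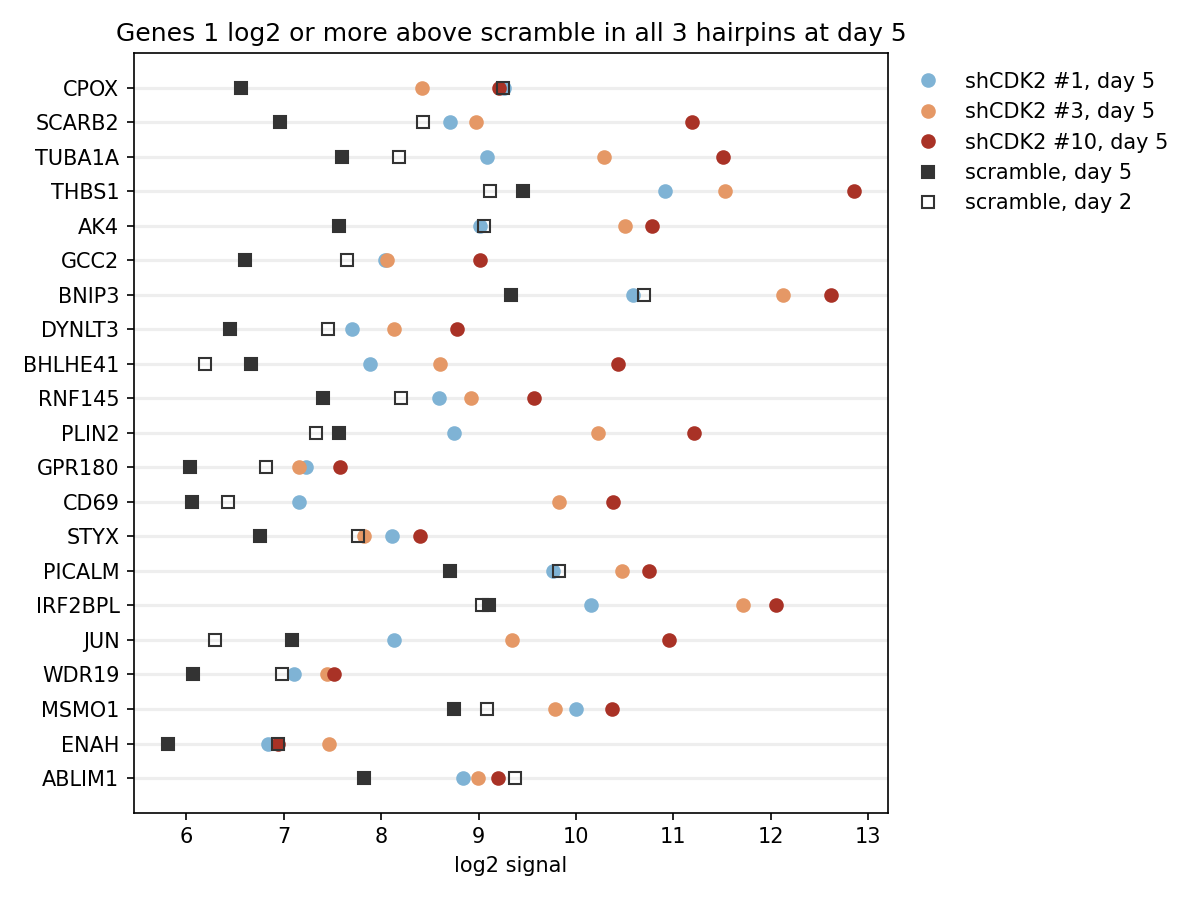
Log2 signal (horizontal axis) of the 21 genes past the fold higher in all 3 hairpins at day 5, 1 gene a row, with round points for the hairpins and squares for the arrays labelled scramble (filled, day 5; open, day 2). The open square lies to the right of the filled one in 16 rows, and reaches the hairpin points in CPOX, AK4, BNIP3, PICALM, ENAH and ABLIM1.

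In the lower direction the closest to a shared difference were WIZ, DEFA5, NACC2, PRICKLE3, GBGT1, TPRN, PFKM, TCTA, SH3GL1, ASF1B, FAM98A and SKA2. WIZ, a zinc finger partner of the histone methyltransferases G9a and GLP, stood at 7.72, 7.91 and 7.65 log2 in #1, #3 and #10, against 8.62 log2 in the array labelled scramble (mean difference -0.86, SE 0.29). ASF1B, a histone chaperone of replicating cells, differed by -0.68, -0.56 and -0.97 log2. SKA2, of the kinetochore, was lower by 1.29, 0.54 and 1.08 log2. PRICKLE3, with differences of -0.74, -0.65 and -0.69 log2, was the most even over the hairpins of those named here. None of the 12 passed limma's test, at adjusted p of 0.913 or more.

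Interferon-induced genes were higher in #3 and #10 and level in #1. Of 44 listed genes 40 were measured, and 20 were past the fold higher in #3, 34 in #10 and 0 in #1, where 6.2%, 5.57% and 0.319% of all tested genes were. In #1, 1 was past the fold lower. The medians were -0.03, 1.05 and 2.58 log2 in #1, #3 and #10, beside -0.03, -0.09 and -0.11 over all tested genes. IFIT1, which binds viral RNA lacking cap methylation, had 6.32, 10.19 and 12.53 log2 in the hairpins, against 6.52 log2 in the array labelled scramble. IFIT2 had 6.27, 10.43 and 10.82 log2, against 6.00 log2. In both, #3 and #10 were far above the control and #1 lay beside it. RIGI, the cytosolic sensor of viral RNA, differed by -0.03, 2.46 and 4.62 log2, and CMPK2, a mitochondrial nucleotide kinase, by -0.07, 2.44 and 4.90 log2. GBP2, an interferon-induced GTPase, was the member past the fold lower in #1, at 4.95 log2 against 6.29 log2, while #3 and #10 had 9.15 and 9.23 log2. At day 2 the medians over the 34 members that passed the filter were 0.22, 0.15 and 1.08 log2. The mean day 5 differences were 3.16 log2 for IFIT1 (SE 2.05) and 3.17 log2 for IFIT2 (SE 1.91), neither passing limma's test (adjusted p between 0.913 and 0.989 for every gene followed). Antigen presentation genes had smaller differences, with medians of -0.09, 0.11 and 0.42 log2 over 21 measured of 22 listed. Past the fold higher were 0, 3 and 5 of them. TAP1, a subunit of the peptide transporter, differed by -0.01, 1.17 and 2.63 log2, and HLA-E, whose probes can match other HLA genes, by -0.35, 1.43 and 1.45 log2. By any size 7 and 5 of the 19 tested were below the control in #3 and #10, where 56.1% and 62.2% of all tested genes were. HLA-F and HLA-G were among those below it.

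The promoter of IFIT1, the listed gene with the largest difference in #10, is printed because the list shares a short motif. The window runs from 250 bases before to 50 bases after the gene's start (RefSeq, GRCh38.p14), and capitals mark 2 copies of GAAA set 2 bases apart, on either strand, the core of the interferon-stimulated response element. The sequence of IFIT1 is from chr10:89392373-89392672, plus strand.
IFIT1: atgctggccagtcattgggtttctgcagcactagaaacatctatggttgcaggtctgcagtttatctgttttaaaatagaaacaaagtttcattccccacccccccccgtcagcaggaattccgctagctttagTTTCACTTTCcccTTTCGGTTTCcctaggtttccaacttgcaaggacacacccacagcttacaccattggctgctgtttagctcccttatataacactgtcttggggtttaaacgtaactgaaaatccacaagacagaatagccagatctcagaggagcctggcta
It holds 2 such stretches. The motif was in 27 of 43 promoters (62.8%) of the listed interferon genes, in 1 of 31 (3.2%) of the listed hypoxia genes and in 3.57% of all 35116 promoters of the same length. A match says that these letters are in the window and nothing of what binds there.

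Inflammatory cytokines and NF-kB targets formed a similar picture. Of 31 listed genes 28 were measured, with medians of 0.12, 1.16 and 1.27 log2 in #1, #3 and #10. Past the fold higher were 0, 15 and 16, where 0.319%, 6.2% and 5.57% of all tested genes were. IL1B, the pyrogenic cytokine interleukin 1 beta, had 7.79, 12.94 and 13.69 log2 in #1, #3 and #10, against 8.12 log2 in the array labelled scramble. CCL3, a chemokine for monocytes that has near-identical gene copies, had 8.42, 12.33 and 13.58 log2, against 7.49 log2. The hairpin #1 was on either side of the control in these genes and the other hairpins more than 4 log2 above it. IL1A differed by 0.16, 4.58 and 5.56 log2 and CXCL3 by 0.13, 2.51 and 5.90 log2. CXCL1, a chemokine for neutrophils, went the other way in #3, at 6.16 log2 against 7.38 log2. At day 2 IL1B was 0.89, 0.21 and 4.13 log2 above its control in #1, #3 and #10, so the array labelled #3 was near it then and #10 was not. BCL2A1, a survival factor that NF-kB induces, differed at day 5 by 0.06, 2.93 and 4.20 log2, and the death ligand TNFSF10 by -0.71, 3.00 and 4.63 log2.

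Among immediate early genes, 26 of 27 listed were measured, and 1, 6 and 10 were past the fold higher in #1, #3 and #10, with 1 lower in #10. The shares of all tested genes were 0.319%, 6.2% and 5.57% higher, and 0.537% lower in #10. The medians were -0.02, 0.20 and 0.09 log2, over members that went both ways. IER3, an early gene with a role in cell survival, had 6.68, 10.58 and 12.98 log2 in the hairpins, against 6.49 log2 in the array labelled scramble. DUSP5 and DUSP6, the phosphatases of ERK, differed by 0.44, 2.82 and 3.88 log2 and by 0.28, 1.38 and 1.80 log2. JUN, described above, was the member past the fold in #1.

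Some chemokines, chosen for this gap, lay furthest from the control in #10. CCL8, a monocyte chemokine, had 4.94, 9.22 and 13.19 log2 in #1, #3 and #10, against 4.94 log2 in the array labelled scramble, the largest difference in the comparison. CCL7, another, had 4.64, 6.70 and 12.42 log2, against 4.70 log2. In both genes #10 was above #3 and #3 above #1, which equalled the control within 0.06 log2. Like CD163 and C5AR1 below, both were under 5.83 log2 in most of the 8 arrays and passed the filter through the arrays in which they were high. At day 2 CCL8 was 0.18, 0.25 and 0.19 log2 above its control, so the distance seen in #3 and #10 at day 5 was not yet there. CXCL2 differed at day 5 by -0.20, 1.00 and 4.67 log2, TCN1, a vitamin B12 binder of neutrophil granules, by -0.24, 0.39 and 4.71 log2, and the lysosomal protease CTSL by 0.13, 0.75 and 4.29 log2. Each of these 5 genes was chosen for the gap between #10 and the other hairpins.

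Of 28 monocyte and macrophage markers 26 were measured, with medians of -0.03, 0.20 and 0.88 log2 in #1, #3 and #10. Past the fold higher were 0, 5 and 12, where 0.319%, 6.2% and 5.57% of all tested genes were. In #10, 1 was lower, where 0.537% of all tested genes were. The median level over the 26 measured was 6.65, 6.99 and 7.53 log2 in the hairpins, against 6.735 log2 in the array labelled scramble. CD14, the co-receptor for lipopolysaccharide, had 5.45, 8.43 and 10.65 log2, against 5.15 log2, and CD163, the haemoglobin scavenger receptor, 4.66, 7.92 and 10.27 log2, against 4.86 log2. CD163 passed the filter through the arrays in which it was high, so its values are description only. MARCO, another scavenger receptor, stood apart in #10, with differences of 0.14, 0.26 and 3.06 log2. In RNA of a whole culture, more or fewer cells of a type cannot be told apart from more or less RNA of these genes in each cell. The part of monocyte-like cells in the interferon and chemokine values was not tested.

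Receptors for antibody, complement and sugars were higher in #3 and #10. Of 23 listed genes 20 were measured, with medians of -0.12, 1.36 and 1.60 log2 in #1, #3 and #10. Past the fold higher were 1, 11 and 13, where 0.319%, 6.2% and 5.57% of all tested genes were. C5AR1, the receptor for complement C5a, had 4.95, 8.97 and 8.98 log2 in the hairpins, against 4.61 log2 in the array labelled scramble. Like CD163, it passed the filter through the arrays in which it was high. FCGR2B had 6.21, 10.84 and 12.07 log2, against 6.12 log2, but shares long stretches with other FCGR2 genes. CLEC2B differed by 0.35, 3.28 and 4.49 log2. In these genes #3 and #10 were both above the control by more than 3 log2. At day 2 CLEC2B was 1.38, 2.15 and 4.32 log2 above its control, whereas C5AR1 was 0.40, 0.15 and 4.47 log2 above, with the array labelled #3 level.

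Granulocyte maturation genes, of which 30 of 32 listed were measured, were past the fold higher in 11 members in #3 and in 10 in #10, with 3 lower in #10. In #1 0 were higher and 2 lower. Of all tested genes 0.319%, 6.2% and 5.57% were higher in #1, #3 and #10, and 0.568% and 0.537% were lower in #1 and #10. The medians were -0.19, 0.33 and 0.25 log2, and over the 22 that passed the filter -0.28, 0.95 and 0.72 log2. ITGAM, the integrin CD11b that marks maturing myeloid cells, had 7.57, 10.51 and 10.20 log2 in #1, #3 and #10, against 8.14 log2 in the array labelled scramble. MMP9, the gelatinase of tertiary granules, had 12.16, 13.77 and 13.75 log2, against 11.31 log2. FPR1, the receptor for bacterial formyl peptides, differed by 0.23, 1.59 and 2.06 log2. MMP9 was the one of these 3 that was clearly above the control in #1 as well, by 0.85 log2, and against the array labelled scramble at day 2 it was past the fold in all 3 hairpins.

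The calprotectin subunits divided the hairpins in another way. S100A9 had 7.63, 11.24 and 10.27 log2 in #1, #3 and #10, against 8.79 log2 in the array labelled scramble. S100A8 had 7.43, 11.00 and 7.98 log2, against 8.50 log2. Both were above the control in #3 and below it in #1, while in #10 S100A9 was above and S100A8 below. MGAM, the maltase-glucoamylase of neutrophils, differed by -0.15, 2.74 and 0.74 log2 and was nearest to its control in #1. Like C5AR1, MGAM was under 5.83 log2 in most of the 8 arrays and passed the filter through those in which it was high. S100A8, S100A9 and MGAM were chosen for the gap between 1 hairpin and the others, as was PADI4. PADI4, which citrullinates histones in neutrophils, was 1.38 log2 below the control in #10, with -0.22 and 0.08 log2 in #1 and #3. The azurophil granule protease PRTN3 was 1.00 log2 below it in #10, with -0.03 and 0.13 log2 in #1 and #3. Of the progenitor genes FLT3 was 1.10 log2 lower in #10, and MYB was 1.06 log2 higher in #3. Over the 20 measured progenitor genes the medians were -0.08, 0.083 and -0.05 log2.

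**Figure D4:**
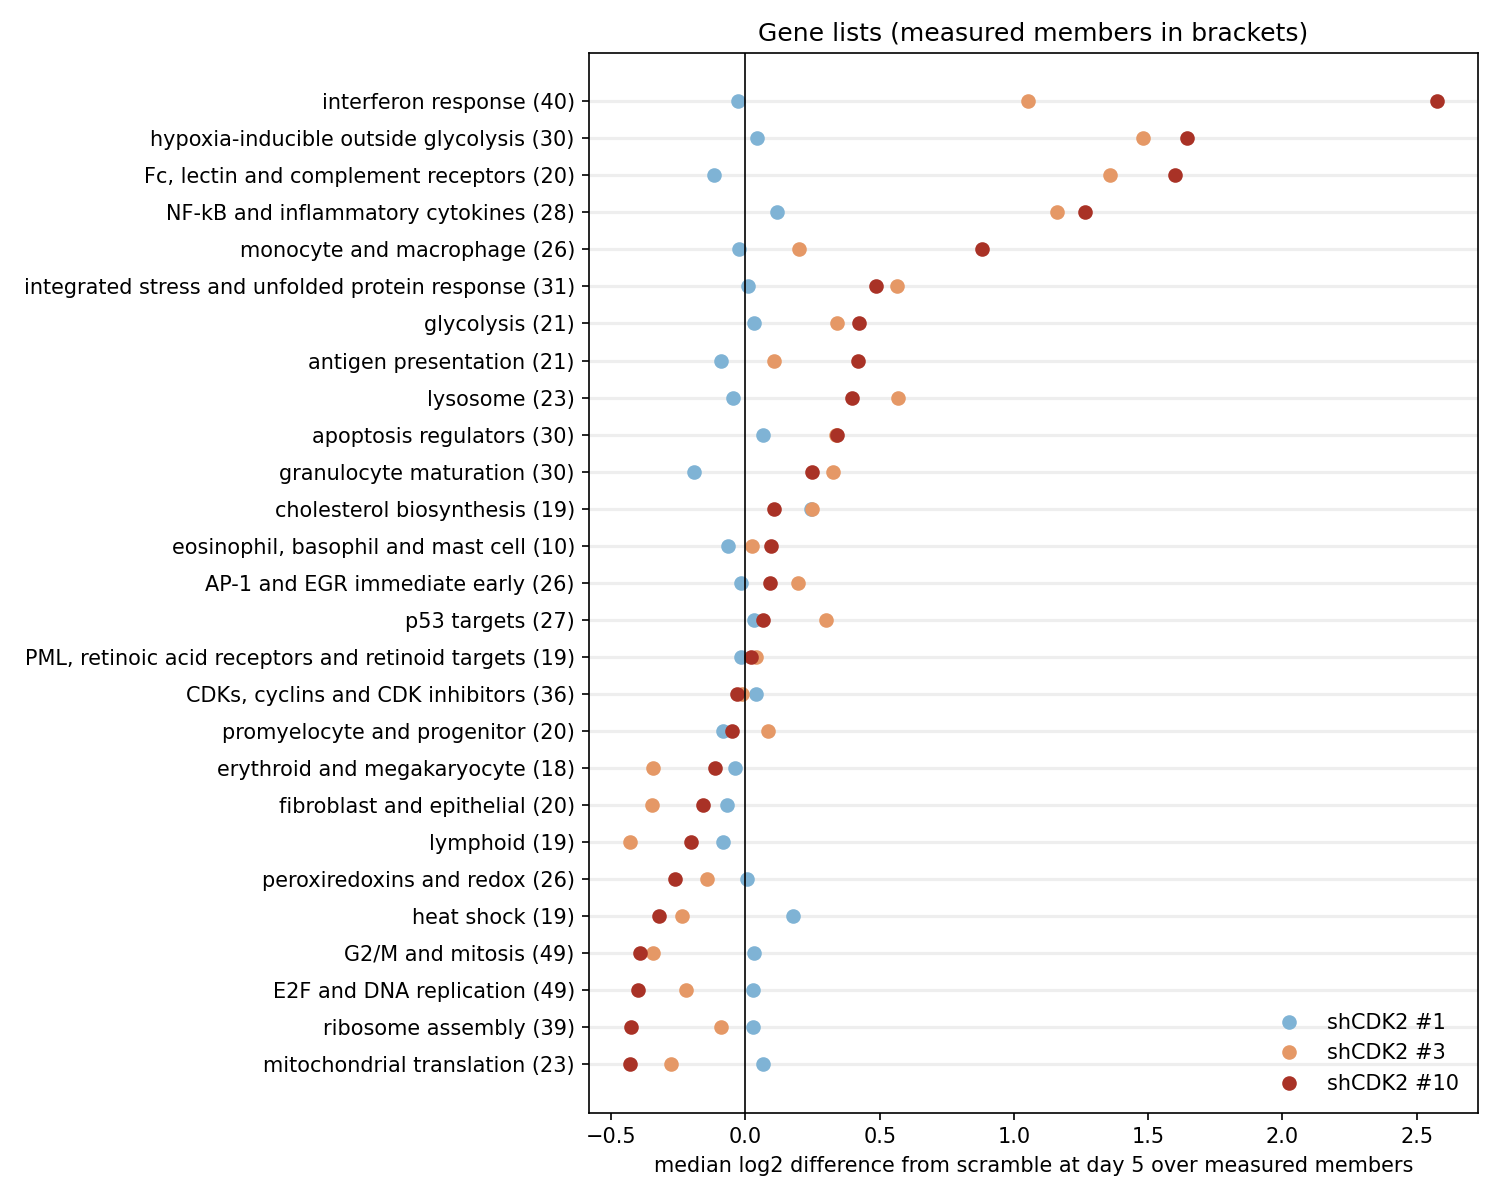
Median log2 difference from the array labelled scramble at day 5 (horizontal axis) over all measured members of each gene list, in each hairpin. Points for #3 and #10 lie far to the right for the interferon, receptor, hypoxia and NF-kB lists, and to the left for the ribosome, mitochondrial translation, E2F, mitosis, lymphoid and fibroblast lists, while #1 stays within 0.24 log2 of 0 throughout.

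Hypoxia-inducible genes were higher in #3 and #10 and held 3 of the shared genes. Of 32 listed genes 30 were measured, with medians of 0.043, 1.48 and 1.64 log2 in #1, #3 and #10. Past the fold higher were 3, 20 and 18, where 0.319%, 6.2% and 5.57% of all tested genes were. In #1, 1 was lower, where 0.568% of all tested genes were. The 3 past the fold in #1 were BNIP3, PLIN2 and BHLHE41. SPAG4 differed by -0.15, 2.88 and 3.58 log2, NDRG1 by 0.40, 2.28 and 2.48 log2, and VEGFA, the classical target of the pathway, by -0.12, -0.57 and -0.22 log2, so not every member was higher. At day 2 the medians over the 26 that passed the filter were 0.10, 0.93 and 1.61 log2. Among the 21 tested enzymes and regulators of glycolysis 0, 7 and 7 were past the fold higher, beside the shares of all tested genes given above. ALDOC, an aldolase, had 9.29, 11.46 and 11.71 log2 in the hairpins, against 8.51 log2 in the array labelled scramble. HK1 differed by 0.48, 2.39 and 3.63 log2, and PDK1, a kinase that inhibits pyruvate dehydrogenase, by 0.70, 2.85 and 2.12 log2. BNIP3L, a mitophagy receptor and paralog of BNIP3, differed by 0.25, 2.87 and 2.68 log2. In each of these genes #1 was above the control by less than 1 log2 and the other hairpins by more than 2.

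The promoters of the 3 hypoxia-list genes shared by all hairpins are printed because each holds ACGTG, the core to which hypoxia-inducible factors bind. The windows and build are as for IFIT1, each window reads in the direction of its gene, and capitals mark ACGTG on either strand, which reads CACGTG where both strands match at overlapping positions. BNIP3 is from chr10:131981874-131982173, PLIN2 from chr9:19127443-19127742 and BHLHE41 from chr12:26124988-26125287, all on the minus strand.
BNIP3: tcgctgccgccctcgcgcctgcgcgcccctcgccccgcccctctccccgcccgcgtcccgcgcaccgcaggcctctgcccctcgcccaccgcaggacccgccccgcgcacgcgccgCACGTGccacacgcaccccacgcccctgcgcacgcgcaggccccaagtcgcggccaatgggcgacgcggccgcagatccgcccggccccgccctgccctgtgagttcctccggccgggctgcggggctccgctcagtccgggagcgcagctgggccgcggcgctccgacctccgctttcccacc
PLIN2: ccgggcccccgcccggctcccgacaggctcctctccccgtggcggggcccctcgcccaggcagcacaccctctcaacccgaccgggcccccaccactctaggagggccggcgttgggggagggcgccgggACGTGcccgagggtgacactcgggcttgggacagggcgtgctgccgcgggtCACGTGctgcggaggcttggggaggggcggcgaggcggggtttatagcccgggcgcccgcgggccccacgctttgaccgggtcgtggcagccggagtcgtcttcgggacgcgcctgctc
BHLHE41: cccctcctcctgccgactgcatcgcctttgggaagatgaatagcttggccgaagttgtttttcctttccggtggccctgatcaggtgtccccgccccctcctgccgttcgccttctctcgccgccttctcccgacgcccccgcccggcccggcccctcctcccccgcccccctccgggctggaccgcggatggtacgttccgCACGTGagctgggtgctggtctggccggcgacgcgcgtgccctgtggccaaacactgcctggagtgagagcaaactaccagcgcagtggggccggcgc
The letters ACGTG were in 22 of 31 promoters (71.0%) of the listed hypoxia genes, 18 of 48 (37.5%) of the glycolysis genes, 8 of 43 (18.6%) of the interferon genes and 21.4% of all promoters. A short motif of this kind is frequent by its length, and a match is no site.

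Genes of DNA replication and mitosis were lower in #3 and #10 by small amounts and level in #1. Of 50 genes listed as E2F targets or replication factors 49 were tested, and by any size 22, 39 and 47 were lower in #1, #3 and #10, with medians of 0.03, -0.22 and -0.40 log2. Of all tested genes 56.7%, 56.1% and 62.2% were lower by any size, and the medians of the lymphoid list and of the fibroblast and epithelial list in #3 were -0.43 and -0.35 log2. For 49 tested genes of G2 and mitosis the numbers lower were 18, 40 and 45 and the medians 0.03, -0.35 and -0.39 log2. Past the fold lower were 0, 1 and 3 of them, where 0.568%, 0.343% and 0.537% of all tested genes were. CCNA2, a cyclin that binds CDK2, had 10.57, 9.57 and 9.46 log2 in the hairpins, against 10.60 log2 in the array labelled scramble. CDC20, the activator of the anaphase-promoting complex, differed by -0.30, -0.87 and -0.94 log2, and ORC1, a subunit of the origin recognition complex, by -0.63, -0.49 and -0.66 log2. ORC1 was thus lower in all 3 hairpins to a like degree, and CCNA2 in #3 and #10. PCNA, the sliding clamp of replication, was higher in all 3 hairpins on its brightest probe set, as was UNG by smaller amounts. PCNA stood at 12.67, 12.05 and 12.32 log2 in #1, #3 and #10, against 11.64 log2 in the array labelled scramble. The array labelled scramble at day 2 read 12.75 log2. The mean PCNA difference was 0.71 log2, but 0.11 log2 with the mean of its 2 probe sets.

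Of the regulators of the cycle, CDKN1A, the p21 inhibitor of CDK2, had 8.09, 8.84 and 10.72 log2 in #1, #3 and #10, against 7.84 log2 in the array labelled scramble at day 5, which was itself 0.84 log2 above that of day 2. All 3 hairpins were above both controls, #10 by the most. RB1, the retinoblastoma gene, differed by 0.52, 1.92 and 0.95 log2, CCND1, cyclin D1, by 0.35, 1.63 and 1.18 log2, and CCNG2, a cyclin of resting cells, by -0.07, 1.71 and 1.23 log2. Over the 34 tested CDKs, cyclins and inhibitors the medians were 0.04, 0.02 and -0.03 log2, near those of all genes. Of 23 tested p53 targets, 0, 5 and 4 were past the fold higher, where 0.319%, 6.2% and 5.57% of all tested genes were. The p53 targets past it included GADD45A, which had 7.40, 8.19 and 8.86 log2, against 6.70 log2.

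Biosynthetic genes had small negative differences in #10. For 38 tested genes of ribosome assembly the medians were 0.03, -0.11 and -0.43 log2 in #1, #3 and #10, and 18, 26 and 36 members were lower by any size, where 56.7%, 56.1% and 62.2% of all tested genes were. RRP15 was 0.87, 0.25 and 1.10 log2 below the control, and UTP20 0.34, 0.59 and 1.07 log2 below it. Both are needed to process ribosomal RNA. The 23 genes of mitochondrial translation had medians of 0.07, -0.28 and -0.43 log2, and the elongation factor TUFM was 0.35, 0.47 and 0.55 log2 lower. Heat shock genes had medians of 0.18, -0.24 and -0.32 log2. The control moved in these lists as well: the array labelled scramble at day 5 minus that of day 2 had a median of -0.58 log2 for ribosome assembly and -0.38 log2 for mitochondrial translation, and at day 2 the hairpin medians were -0.74, -0.60 and -1.15 log2 and -0.46, -0.37 and -0.86 log2.

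Redox genes were mixed. NQO1, a quinone reductase driven by NRF2, was 0.15 log2 higher in #1 and 1.56 and 1.08 log2 lower in #3 and #10, and PIR differed by 0.38, -1.14 and -1.65 log2. SRXN1, which repairs oxidised peroxiredoxins, had 9.60, 8.86 and 9.38 log2 in the hairpins, against 8.40 log2 in the array labelled scramble and 9.83 log2 in that of day 2. The 25 tested members had medians of 0.00, -0.19 and -0.33 log2. Of 31 stress-response genes 0, 4 and 6 were past the fold higher, where 0.319%, 6.2% and 5.57% of all tested genes were. The stress-response genes past it included VLDLR, a lipoprotein receptor, with differences of 0.91, 2.57 and 2.94 log2, and ASNS, asparagine synthetase, with 0.29, 1.44 and 2.13 log2. In cholesterol synthesis 1, 5 and 4 of 19 were past the fold higher, beside the same shares of all tested genes. The 1 in #1 was MSMO1, a sterol demethylation enzyme, with 10.00, 9.78 and 10.38 log2 in the hairpins, against 8.75 log2. SQLE, squalene epoxidase, was even over the hairpins, 0.90, 1.02 and 1.03 log2 above the control. ICAM1, an adhesion molecule on the retinoid list, had 10.62, 12.62 and 12.97 log2, against 10.09 log2, while that list as a whole had medians of 0.01, 0.07 and 0.15 log2 over 18 tested genes.

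A few genes were furthest from the control in #1. CYP1A1, the cytochrome that the aryl hydrocarbon receptor induces, had 8.73, 7.84 and 8.01 log2 in #1, #3 and #10, against 7.36 log2 in the array labelled scramble. GSAP and ANKRD46 were 1.24 and 1.30 log2 higher in #1. In all 3 genes #3 and #10 also lay above the control, by less than 1 log2. Lower in #1 were ERO1A, the oxidase of the endoplasmic reticulum, by 1.14 log2, and ITGA6, integrin alpha 6, by 1.04 log2, where #3 had values of 1.54 and 2.16 log2 above the control. These genes were chosen for the gap between 1 hairpin and the others, as were OLIG1, IPCEF1 and SDCBP, which were 1.53, 1.83 and 1.79 log2 above the control in #3 and below it in #1 and #10. CYTL1 and MAD1L1 were 1.01 and 1.03 log2 below it in #3, and RBP4 and CFL2 differed from it by -2.23 and -1.42 log2 in #10.

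Markers of other cell types had small negative medians in #3 and #10 in 3 of the 4 lists, and each list held single genes that were higher. The erythroid and megakaryocyte list, with 12 of 25 genes tested, had summed levels of 90.1, 93.8 and 94.5 log2 in #1, #3 and #10, against 92.2 log2 in the array labelled scramble. Over its 18 measured members the medians were -0.039, -0.34 and -0.12 log2. Past the fold higher were 0, 3 and 3 of these, where 0.319%, 6.2% and 5.57% of all tested genes were. The 2 that passed the filter were CD9 and ITGA2B, which differed by 0.02, 2.92 and 2.70 log2 and by -0.23, 1.60 and 1.40 log2. The lymphoid list (15 of 22) summed to 112.1, 108.2 and 113.4, against 113.4 log2, and over its 19 measured members had medians of -0.084, -0.43 and -0.20 log2. CD3D differed in it by 0.14, 0.73 and 2.03 log2. The fibroblast and epithelial list (15 of 20) summed to 100.8, 98.3 and 103.6, against 102.4 log2, with medians over all 20 of -0.071, -0.35 and -0.16 log2. FN1, fibronectin, was 3.29 log2 higher in #10. Of 14 eosinophil, basophil and mast cell genes 10 were measured, with medians of -0.066, 0.026 and 0.093 log2. Past the fold higher were 0, 3 and 3, where 0.319%, 6.2% and 5.57% of all tested genes were. The 5 that passed the filter summed to 49.0, 52.7 and 53.8, against 49.5 log2. Dim members can enter the sums of these lists through the arrays in which they are high, so nothing is read from the sums. PRG2, eosinophil major basic protein, was abundant throughout, at 12.20, 13.88 and 13.61 log2 in the hairpins, against 12.07 log2, and HDC, which makes histamine, stood at 10.98, 12.66 and 13.06 log2, against 11.30 log2. The part of such markers in the other results was not tested.

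**Figure D5:**
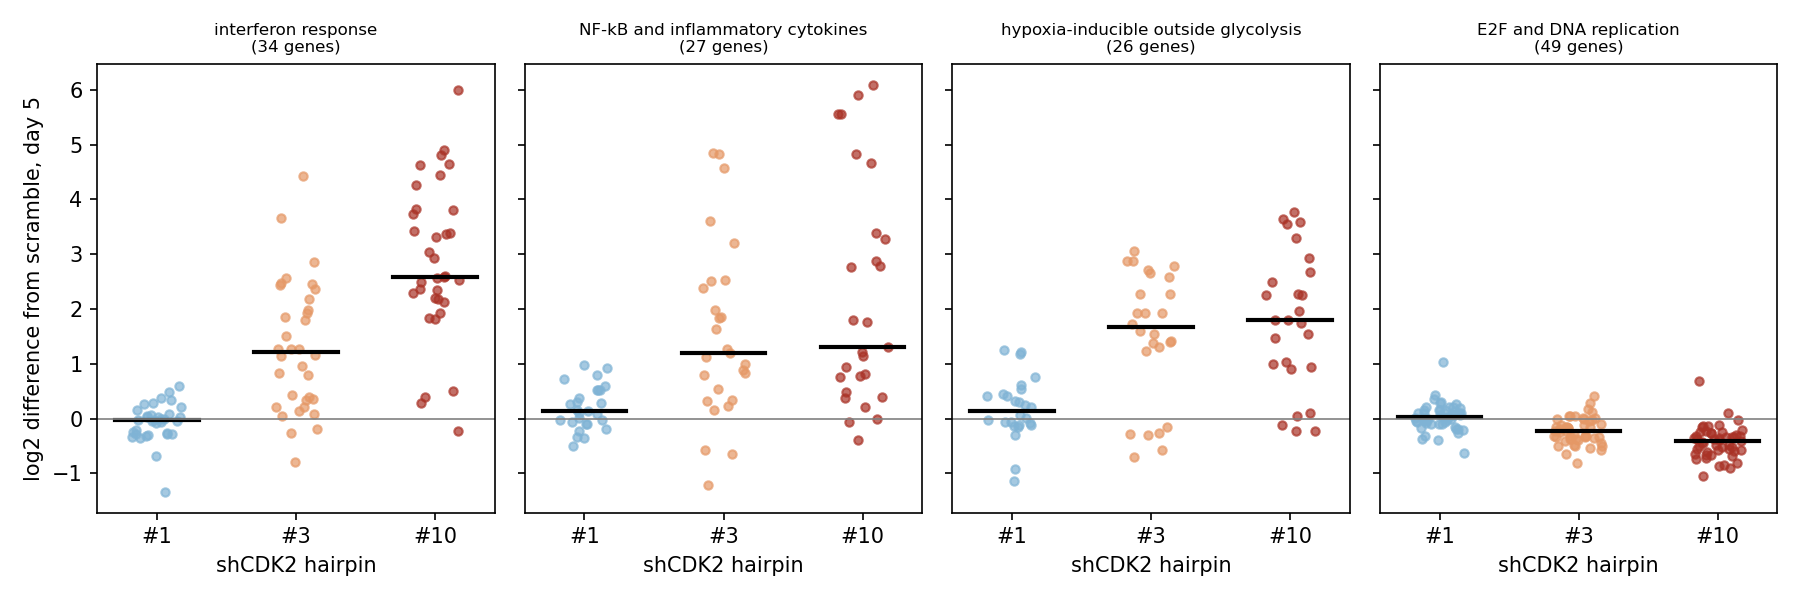
Log2 difference from the array labelled scramble at day 5 (vertical axis) of every tested member of 4 gene lists, 1 point a gene and a bar at the median, in hairpins #1, #3 and #10. Interferon genes spread upward most in #10, cytokine and hypoxia genes about equally in #3 and #10, and E2F genes lie slightly under 0 in #3 and #10.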

How the data were processed

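Biotin-labelled RNA of NB4 cells was hybridised to Affymetrix arrays, 8 in all, of which the 4 of day 5 are compared here. The deposited values are log2 signals per probe set; the scale was inferred from their range. Partek is named per the submitters' processing notes, and neither its version nor the normalization is given in the sources used here. Samples were grouped by GEO's labels. Of 49395 probe sets, 44994 were annotated to 1 gene, 1832 to several and 2569 to none, and 44967 of the first matched RefSeq by gene. Those of several or no genes were left out. A gene took its probe set with the highest mean, and was tested if that mean exceeded 5.83 log2, the 40th percentile over probe sets.

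The 3 hairpin arrays were compared with the scramble-labelled array by limma 3.58.1 in R 4.3.3 (lmFit, eBayes, 2-sided, Benjamini-Hochberg over 12845 genes) on all 8 arrays with 4 residual degrees of freedom. The lone control array is assumed to vary as the hairpin arrays do. Named are CDK2, the 12 genes per direction with the largest difference in the least-moved hairpin, the 5 genes per direction most apart in each hairpin, and up to 4 genes of each list by mean difference; the other shared genes, CHST2, NDRG1 and VEGFA were named after their values were seen. The members, lists and comparisons were chosen with earlier results of these data known. Promoters were matched by symbol to RefSeq (25 of 32 hypoxia, 22 of 23 glycolysis and 33 of 44 interferon genes). Alternatives were another normalization, probe set summary, filter, fold, control array, leaving out arrays and a block by hairpin number. The number of arrays limits the precision.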

Additional observations from a re-analysis of the deposited data

Results flagged for a closer look

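Among the named genes, 9 were higher in all 3 hairpins on one day and lower in all 3 on the other, each against the array labelled scramble of that day. Higher at day 5 and lower at day 2 were CPOX, PCNA and SRXN1, whose mean day 5 difference minus mean day 2 difference was 2.68, 1.00 and 1.55 log2. With the mean of its probe sets, the mean day 5 difference of PCNA was 0.11 log2. Lower at day 5 and higher at day 2 were CXCL1 (-0.65), CD34 (-0.62), CD3E (-0.60), CD79A (-0.44), CD2 (-0.49) and SIGLEC8 (-0.75 log2). limma's test of this difference of days passed in none of them, with a smallest adjusted p of 1.00 over all tested genes. In CPOX, PCNA and SRXN1 the array labelled scramble at day 5 stood at 6.57, 11.64 and 8.40 log2, and that of day 2 at 9.25, 12.75 and 9.83 log2. In CXCL1 these arrays stood at 7.38 and 6.87 log2. Against that of day 2, the mean day 5 differences of CXCL1, CD34, CD3E, CD2 and SIGLEC8 were 0.045, 0.10, 0.088, 0.10 and 0.24 log2. They thus changed sign, and that of CD79A did not.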

How the results depend on the processing

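limma called 0 genes at day 5, and 0 in the difference of days, under every alternative run, with 74 to 973 and 111 to 352 genes at an unadjusted p under 0.05; the smallest adjusted p at day 5 was 0.156, with hairpin number as a replicate block (0 called, 662 unadjusted). The numbers paired the arrays only in part. For this, the mean of the 3 hairpins of a day was first subtracted from each gene. Same-numbered hairpins of the 2 days then had correlations of 0.715, -0.228 and 0.432 in #1, #3 and #10. Across numbers, #10 of day 2 had 0.568 with #3 of day 5, and #3 of day 2 had 0.316 with #1 of day 5. The rest were negative, which the subtraction partly builds in. CDK2 lay between -0.20 and -0.39 log2 without each hairpin array in turn, and was -0.75 log2 against the mean of both scramble-labelled arrays and -1.20 log2 against that of day 2. The difference of days gives no value with day 5 arrays only or with another control. Genes past the fold higher in #1 numbered 13 with the mean of probe sets, 20 against the mean of both controls, 221 at a fold of 0.58 log2 and 1 at 2 log2; lower in #1, 33 with the mean of probe sets, 161 against the day 2 control, 398 at 0.58 and 2 at 2 log2. Higher in #3 were 385 with the mean of probe sets, 1996 at 0.58 and 130 at 2 log2; lower, 72 after quantile normalization, 14 after median centring, 18 with the mean of probe sets, 20 against the mean of both controls, 117 against day 2, 1378 at 0.58 and 0 at 2 log2. Higher in #10 were 415, 1479 and 226 under the mean of probe sets and these folds; lower, 29, 640 and 1, with 106 against the mean of both controls and 285 against day 2. Shared higher were 3 with the mean of probe sets, 37 against day 2, 112 and 0 at the folds, and 22 to 451 without each hairpin; shared lower were 11 against day 2, 8 at 0.58 log2 and 0 to 10 without each hairpin. Mean differences changed sign in 20 of 154 named genes: against the day 2 control in CPOX (-0.29), PCNA (-0.40), CXCL1 (0.045), CFL2 (0.66), FLT3 (0.011), CD34 (0.10), MYB (-0.10), SRXN1 (-0.56), CD3E (0.088), CD2 (0.10) and SIGLEC8 (0.24); and without 1 hairpin, given as the range over leaving out each, in C1RL (-0.084 to 1.17), ERO1A (-0.094 to 1.24), ITGA6 (-0.022 to 1.58), S100A8 (-0.79 to 0.99), IPCEF1 (-0.39 to 0.79), OLIG1 (-0.56 to 0.52), SDCBP (-0.78 to 0.82), MAD1L1 (-0.62 to 0.090), MYB (-0.071 to 0.63) and PRTN3 (-0.52 to 0.047). The sign changed without #3 in all of these but PRTN3, where it changed without #10, and after quantile normalization in SDCBP (-0.0072). Of 270 list medians 14 changed sign. Except where an alternative uses fewer arrays or another threshold, the cause was not tested. With 1 control array, a difference cannot be told apart from that array's own deviation. Genes with a mean under 5.83 log2 did not enter the main gene comparisons, though the lists given over all measured members hold them.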
